A study of Mus musculus with 2 samples.

Results

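The genes described here are 9 genes of the retinoic acid pathway, measured in mouse neural progenitor cells 24 h after the start of reprogramming. They are the receptor genes Rara, Rarb and Rarg, the binding protein genes Crabp1 and Crabp2, the enzyme genes Aldh1a2, Dhrs3 and Cyp26b1, and Stra8, a gene named for its induction by retinoic acid. Their probes were found by gene name among all non-control probes of the array. This gave 12 probes on 21 spots, and all 9 genes had a probe well above background with EGFP, with Pax6 or with both, of 19251 such genes in all. The 9 genes were selected on a family role and with the log2 signal difference between these same arrays already known, so their differences are a description with no test, and so is any count of them.

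Retinoic acid is made from vitamin A. Retinol is oxidised to retinaldehyde and, by aldehyde dehydrogenases such as that of Aldh1a2, to retinoic acid, while Dhrs3 turns retinaldehyde back into retinol and Cyp26 enzymes degrade the acid. Inside the cell retinoic acid is carried by the Crabp proteins and binds the receptors RAR alpha, beta and gamma, which pair with RXR on DNA. In the developing nervous system it patterns the hindbrain and spinal cord and promotes neuronal differentiation, and Rarb is a well known direct target.

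Both arrays held RNA of N31, a neural progenitor line of strain 129/Ola derived from induced pluripotent stem cells that carries c-Myc, Klf4, Sox2 and Oct3/4 under the control of doxycycline. In the EGFP group the line also overexpressed EGFP, a fluorescent protein, and in the Pax6 group Pax6, a transcription factor of eye and forebrain. Each was driven by the CAG promoter and brought in by the Tol2 transposon. Both groups had received doxycycline for 24 h, there was 1 array per group, and no array without doxycycline was analysed here. The submitters saw a change of cell shape by then in the EGFP group alone, and whether either line is 1 clone is not stated. By its title, the study concerned Pax6 and the passage from a mesenchymal to an epithelial state during induction. No difference below could be checked in replicates, and none has a p-value. The number of arrays limits the precision, and ± below is the scanner software's measurement error of a log2 difference, which leaves out the variation between cultures.

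The software called 64.7% (EGFP) and 67.2% (Pax6) of the 43379 non-control spots well above background, and 0 saturated. All 9 neural progenitor markers examined were measured on both arrays. Nes was lower on the Pax6 array by a log2 difference of -1.66, Slc1a3 lower by -3.69 and Sox2 higher by 1.74. The other 6 were within 2-fold. Over all genes 4.77% differed by at least 2-fold. Sox2 is also a factor driven by doxycycline in this line, and whether its probe reads that transgene is not known here. The brightest Pax6 probe read 557 with EGFP and 822 with Pax6 (0.35 ± 0.20). A second probe, on 9 spots, read 288 and 402 (0.26 ± 0.20), and the remaining probe, well above background with Pax6 alone, read 2.50 and 14.8, at least 1.23-fold higher. All 3 were higher with Pax6. No source used here says which of them reads the transgene, so they do not check the labels, on which every direction below rests. In bulk RNA, fewer cells of a type and less RNA per cell cannot be told apart.

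The promoters of the 2 genes that were lower on the Pax6 array and measured on both, Rarb and Stra8, are shown first because RAR and RXR bind short direct repeats in the promoters of their targets. A half-site was searched as AGGTCA, in the variant AGTTCA, in the form GGGTCA or in the form GGTTCA, on both strands, alone and as a direct repeat with a spacer of 1, 2 or 5 bases, in RefSeq windows of 300 bases (250 before to 50 after a transcript start, build GRCm38.p6). The windows cover 8 of the 9 genes, with 14 windows in all, and Crabp2 has none in the table. The 250 bases before the start are printed. Capitals mark, for Rarb, the 2 half-sites of the repeat with a spacer of 5 bases and, for Stra8, each half-site. Rarb lies at chr14:16575477-16575726 on the minus strand and Stra8 at chr6:34920698-34920947 on the plus strand.
Rarb: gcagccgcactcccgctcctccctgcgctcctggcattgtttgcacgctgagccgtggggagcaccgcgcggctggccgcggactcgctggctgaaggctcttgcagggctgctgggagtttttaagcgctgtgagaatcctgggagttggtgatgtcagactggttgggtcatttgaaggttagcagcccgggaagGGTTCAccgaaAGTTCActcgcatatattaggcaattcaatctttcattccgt
Stra8: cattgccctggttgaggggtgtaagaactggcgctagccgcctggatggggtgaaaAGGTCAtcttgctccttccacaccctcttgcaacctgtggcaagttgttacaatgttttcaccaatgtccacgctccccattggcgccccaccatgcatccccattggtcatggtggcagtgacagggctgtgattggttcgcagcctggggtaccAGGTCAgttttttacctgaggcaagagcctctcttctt

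The repeat with a spacer of 5 bases lies in Rarb from 53 to 37 bases before the transcript start. It was found in 1 of the 14 windows of these genes and in 32 of 32851 windows of all genes (0.0974%). Stra8 has 2 separate half-sites, which begin 194 and 38 bases before its start and form none of the 3 repeats. Single half-sites are common, with 43.7% of all windows holding at least 1, and they lay in 5 of the 14 windows here. Besides the windows of Rarb and Stra8, these were windows of Rara and Rarg, which both differed by less than 2-fold. A link between half-sites and differences was not tested. The repeats with spacers of 1 and 2 bases were found in 0 of the 14 windows, against 0.222% and 0.268% of all windows. A match is a description of the letters and not of binding.

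Among the 9 genes, Stra8, Rarb and 1 probe of Dhrs3 were lower on the Pax6 array, Cyp26b1 was higher, and the rest differed by less than 2-fold. By the rule of size used here, at least 2-fold in the brightest probe, 1 gene was higher and 3 were lower, which is 44.4% of the 9. Over all 19251 genes 4.77% met that rule, 2.35% as higher and 2.43% as lower. Since these genes were chosen with their differences known, the shares are set side by side and nothing is read from them. The median log2 difference of the 9 genes was -0.23, and that of all genes was -0.01. The counts over all genes were 452 higher and 467 lower (49.2% higher), but 538 were higher and 370 lower (59.3% higher) after scaling by the median, and 176 higher and 109 lower (61.8% higher) with normexp and quantile normalisation together. Normexp is a model that takes a fitted background from the raw signal, and the quantile step alone gave 477 higher and 434 lower.

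**Figure D1:**
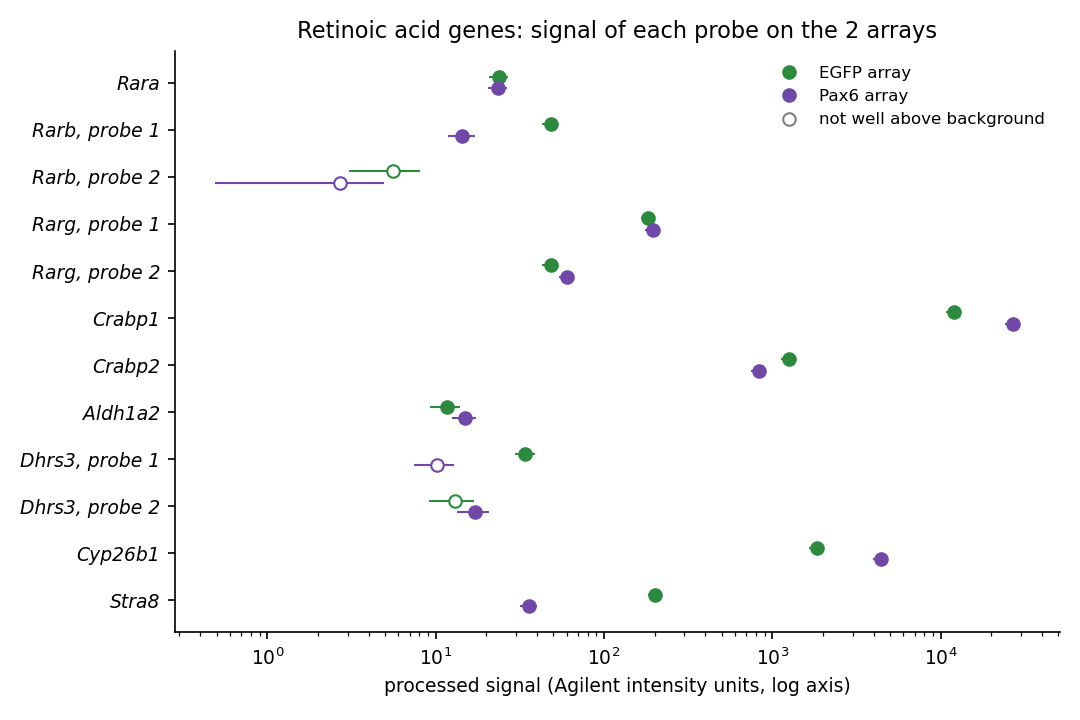
Processed signal of each of the 12 probes on the EGFP array (green) and the Pax6 array (purple), on a log axis. Bars are the scanner software's error of the signal, and open points were not well above background. Stra8 read 202 and 35.7 and the first Rarb probe 48.1 and 14.4, while Cyp26b1 and Crabp1 lay higher on the Pax6 array and the 2 Dhrs3 probes pointed in opposite directions. Probes are not compared with each other by brightness.

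Of the 3 receptor genes, Rarb differed and the other two did not reach 2-fold. The main Rarb probe (chromosome 14, 14246146 to 14246205, minus strand, on the mm7 build of the array design) was printed as 10 spots. On the EGFP array these read 44.0 at the lowest, 47.8 at the median and 53.0 at the highest. On the Pax6 array they read 12.7 at the lowest, 14.6 at the median and 15.8 at the highest. The spots of the arrays did not overlap. The log2 difference was -1.96 ± 0.31, or 3.88-fold lower, with an SD of 0.09 over the 10 spots, which are technical repeats of 1 sample each. Rarb is the gene whose promoter window, printed above, holds the repeat.

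**Figure D2:**
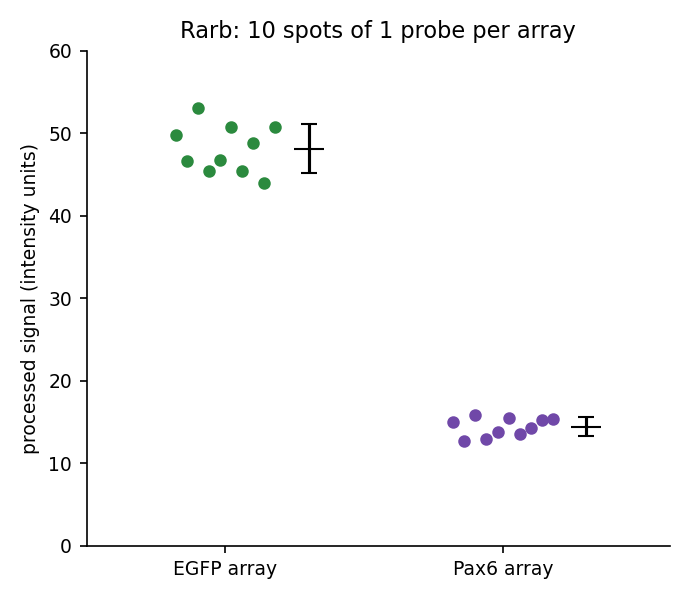
Processed signal of the 10 spots of the main Rarb probe on each array, with mean and SD beside them. All spots of the EGFP array (44.0 to 53.0) lie above all spots of the Pax6 array (12.7 to 15.8).

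Among all genes, 44 had a lower difference than Rarb. The signals were small, and with normexp and quantile normalisation together the log2 difference was -0.56, which no longer met the rule. Quantile normalisation alone gave -1.90. The other Rarb probe, which the array's annotation assigns to a record of another Rarb isoform, spanning 14362927 to 14389669 of chromosome 14, was not well above background on either array, with signals of 5.57 and 2.70, so it gives no fold.

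Rara encodes the most widely expressed of these receptors. Its probe (chromosome 11, 99079584 to 99079643) read 23.8 with EGFP and 23.6 with Pax6, a log2 difference of -0.23 ± 0.27. The difference was smaller than its own error, and its sign turned with normexp and quantile normalisation together (0.01), though not with quantile normalisation alone (-0.18).

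Rarg, the third receptor gene, had 2 probes measured on both arrays. The brighter (chromosome 15, 102222035 to 102222094) read 183 and 195, a log2 difference of -0.12 ± 0.21, and the other (within 102222347 to 102224987) read 48.3 and 60.3, a difference of 0.11 ± 0.22. The probes differed in sign and both differences were within their error, so no difference in Rarg was detectable on these arrays.

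The binding protein genes differed in opposite directions. Crabp1, whose product is thought to hold retinoic acid in the cytoplasm and help its breakdown, was very bright on both arrays. Its probe (chromosome 9, 54797711 to 54797770) read 12028 with EGFP and 26731 with Pax6, a log2 difference of 0.94 ± 0.20, or 1.92-fold higher. Scaling by the median of each array gave 1.02, just past 2-fold. In all, 512 genes had a higher difference than Crabp1.

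Crabp2, whose product carries retinoic acid to the receptors in the nucleus, was lower on the Pax6 array. Its probe (chromosome 3, 88062561 to 88062620) read 1248 and 834, a log2 difference of -0.80 ± 0.20, or 1.74-fold lower. Over the processing alternatives it lay between -0.80 and -0.71, and Crabp1 lay between 0.91 and 1.02. Both genes were near to, and mostly short of, the 2-fold rule, with opposite signs.

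Of the enzyme genes, the degradation gene Cyp26b1 was higher on the Pax6 array, the synthesis gene Aldh1a2 differed by less than its error, and the probes of Dhrs3 disagreed. Cyp26b1, a cytochrome P450 that clears retinoic acid, had a probe on chromosome 6 (84601274 to 84601333, minus strand) that read 1830 with EGFP and 4407 with Pax6. The log2 difference was 1.05 ± 0.20, or 2.08-fold higher. It lay between 1.03 and 1.14 over the 5 alternatives of scaling and background, the only ones that could change it. Among all genes, 404 had a higher difference.

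Aldh1a2, the main retinoic acid synthesising enzyme of the early embryo, was barely above background. Its probe (chromosome 9, 71330506 to 71330565) read 11.6 and 14.9, a log2 difference of 0.15 ± 0.38, which is smaller than its error. At this signal a difference in Aldh1a2 was not detectable.

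The 2 probes of Dhrs3, the retinaldehyde reductase gene, disagreed, although they lie close together on chromosome 4. The brighter (144339876 to 144339935) read 34.1 with EGFP and 10.2 with Pax6, where it was not well above background. By this probe Dhrs3 was 3.89-fold lower as measured (-1.96 ± 0.43). The dim Pax6 signal lay above the floor and was used as read, so the value is no lower bound. The other (144339743 to 144339802) read 13.0 on the EGFP array, where it was not well above background, and 17.1 on the Pax6 array. Its log2 difference of 0.18 ± 0.53 was smaller than its error, so this probe showed no detectable difference. Averaging the probes gave a log2 difference of -0.89 and normexp and quantile normalisation together -0.39, both short of the rule. Dhrs3 counts among the lower genes above through its brighter probe, and without it 2 genes were lower.

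Stra8, which germ cells switch on in response to retinoic acid as they enter meiosis, had the largest difference of the 9 genes. Its probe (chromosome 6, 34870433 to 34870492) read 202 with EGFP and 35.7 with Pax6. It was 6.55-fold lower with Pax6, a log2 difference of -2.71 ± 0.22. That is 12.4 times the software's error, whose median over all genes was 0.20 and which is not a spread between samples. Of all 19251 genes, 8 had a lower difference. With normexp and quantile normalisation together the difference was -1.49, which still met the rule. Stra8 is read by 1 probe on 1 spot, so no second probe bears on the value.

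**Figure D3:**
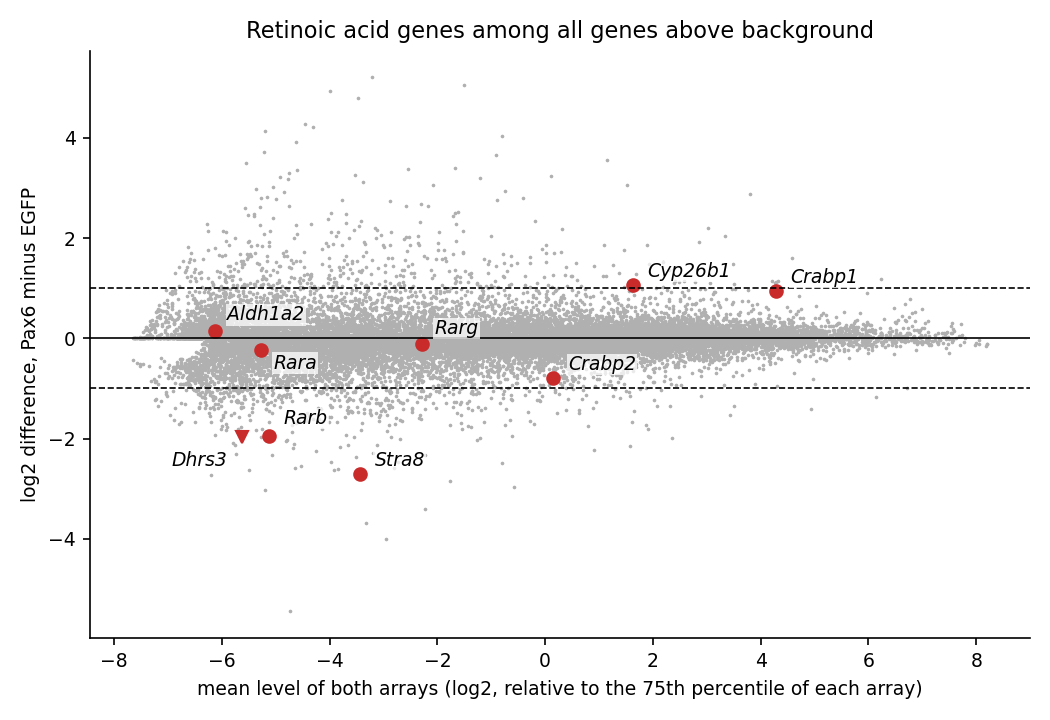
Log2 difference between the Pax6 and EGFP arrays against the mean level of both arrays for the 19251 genes above background (grey) and the 9 retinoic acid genes (red). A triangle marks Dhrs3, well above background on the EGFP array alone. Dashed lines mark 2-fold. Stra8, Rarb and Dhrs3 lie below the lower line, Cyp26b1 just above the upper one at 1.05, and Rarb, Dhrs3, Rara and Aldh1a2 lie at the dim end of the plot.

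The wider retinoid pathway, with germ cell and meiosis genes added, was described through 8 gene lists. These held 87 distinct genes, of which 84 had a probe and 61 could be measured on 1 array or both. By the rule of size, 3 of the 61 were higher with Pax6, 4 lower and 54 neither. That is 11.5% past the rule, beside 4.77% of all genes. The germ cell and meiosis list, which is not of the retinoid pathway, gave 1 of the higher and 2 of the lower genes from only 5 measured. The pooled share is therefore not one of the retinoid pathway alone, and nothing is read from it. The counts were 1 higher and 1 lower with normexp and quantile normalisation together, and also 1 and 1 at a rule of 3-fold. Their median log2 difference was 0.05. The higher genes were Rbp4, Nr2f1 and Prdm1, and the lower ones Aldh1a3, Dhrs9, Rec8 and Tdrd1.

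Among the receptor partners, Rxra and Rxrb, which encode the RXR partners of the dimer, had log2 differences of 0.32 ± 0.20 and 0.05 ± 0.20, and a second, dimmer Rxra probe differed by -0.21 ± 0.22. Neither array showed Rxrg or Ppard well above background. Of the orphan receptors of the COUP-TF family, which can occupy the same repeats, Nr2f1 read 41.4 with EGFP and 97.3 with Pax6 (1.02 ± 0.23), while Nr2f2 differed by -0.28 and Nr2f6 by -0.07. With normexp and quantile normalisation together Nr2f1 differed by 0.58. All 10 coregulator genes, among them the corepressor gene Ncor1, were within 2-fold, with Ncoa1, a coactivator gene, the farthest from 0 at 0.91 ± 0.20. Over all genes only 4.77% met the 2-fold rule, so nothing is read from that count.

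Retinoid carriers included the largest difference of all 8 lists. Rbp4, which carries retinol between cells, read 68.7 with EGFP and 511 with Pax6, 6.40-fold higher (2.68 ± 0.21, and 1.97 with normexp and quantile normalisation together). Stra6, the gene of the receptor that takes up retinol from Rbp4, differed by -0.10 ± 0.20, and Fabp5, a carrier that can also bind retinoic acid, by -0.18 ± 0.21. The thyroid hormone and retinol transport gene Ttr was not well above background on either array.

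Of 20 genes of retinoid synthesis and storage, 14 were measured, 0 were higher and 2 were lower. Over all genes 2.35% were higher and 2.43% lower by that rule, and a list this short can tell little. Aldh1a3, a retinoic acid synthesising enzyme like Aldh1a2, read 275 with EGFP and 145 with Pax6 (-1.14 ± 0.21). Dhrs9, a retinol dehydrogenase, read 106 and 53.0 (-1.21 ± 0.22). Both fell short of 2-fold with normexp and quantile normalisation together, at -0.86 and -0.56, and a second probe of each was not well above background. Aldh1a1, the remaining synthesising enzyme of the family, differed by 0.32 ± 0.20, and was named after its value was seen.

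The 1 degradation gene measured besides Cyp26b1, Cyp2s1, differed by -0.88 ± 0.20 in its brighter probe and by -0.30 ± 0.41 in the other. Cyp26a1, a degradation enzyme gene and a well known target of retinoic acid, was not well above background on either array, with signals of 5.76 and 8.89. Its promoter window also holds the repeat with a spacer of 5 bases, from 32 to 16 bases before the start and on the opposite strand. Of the 20 genes regulated by retinoic acid, 16 were measured and 0 met the 2-fold rule, with a median of 0.12. Over all genes 4.77% met that rule, so 0 of 16 lies near that share and nothing is read from it. The highest was Meis2, a homeobox gene, at 0.88 ± 0.20, and its second probe gave 0.85. The list leaves out all of the 9 genes, among them Rarb, Stra8 and Dhrs3, counted as lower, and Cyp26b1, counted as higher.

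Several genes were first found, like Stra8, as stimulated by retinoic acid and numbered as Stra genes. The 6 measured members of that list, which include Meis2, Efnb1, Lefty1 and Stra6, had log2 differences between -0.39 and 0.88. Of these 6, 0 met the 2-fold rule, beside 4.77% of all genes, and a list this short can tell little. None of the 6 was lower by as much as Stra8, but only 8 of all 19251 genes were lower than it.

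**Figure D4:**
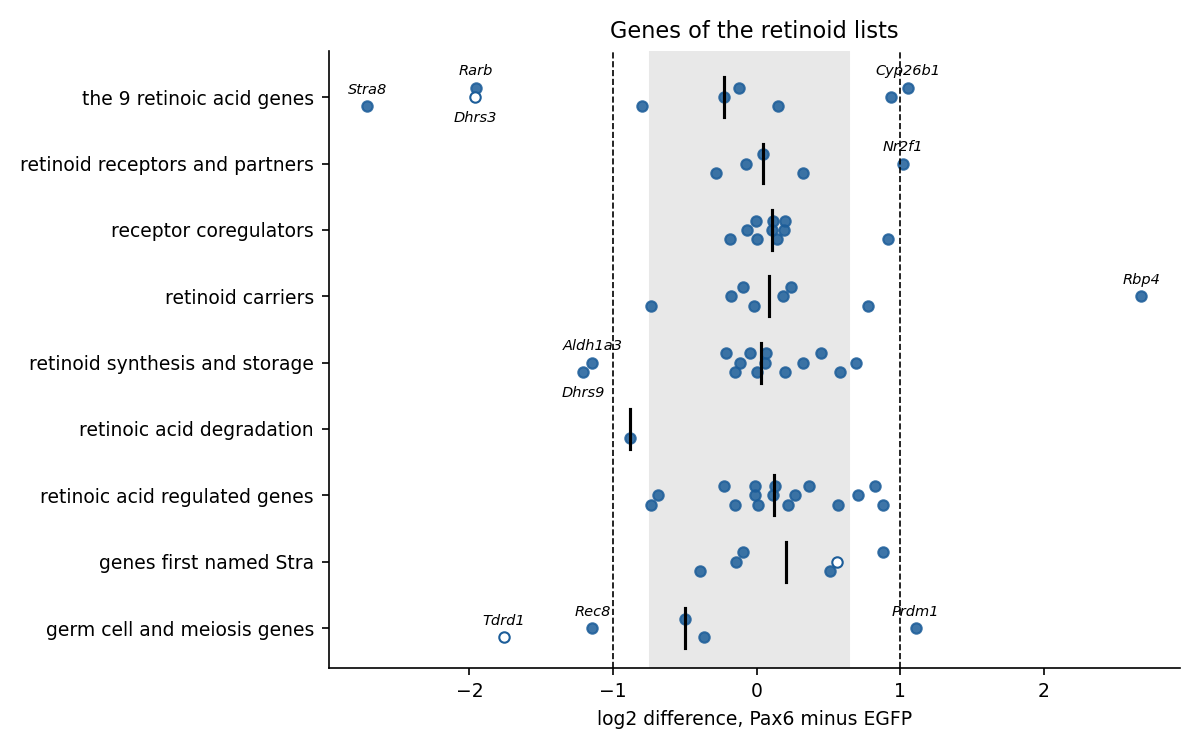
Log2 difference between the Pax6 and EGFP arrays of each measured gene (point), for the 9 retinoic acid genes and the 8 lists, which include germ cell and meiosis genes. Open points were well above background on 1 array alone. Black bars are medians, dashed lines mark 2-fold, and the grey band holds the central 90% of all genes (-0.74 to 0.64). Rbp4 at 2.68 is the farthest point on the higher side and Stra8 at -2.71 on the lower side.

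Genes of germ cells and meiosis were set beside Stra8. Of 14 genes, 13 had a probe and 5 could be measured. Rec8, which encodes a meiotic cohesin subunit, read 3788 with EGFP and 1989 with Pax6 (-1.14 ± 0.20), and its second probe differed by -1.28 ± 0.20. Tdrd1, a germ granule gene, was at least 3.39-fold lower on the Pax6 array by 1 probe, a value of -0.37 with normexp and quantile normalisation together, and its other probe was not well above background. Prdm1, a regulator of germ cell specification and of B cells, read 88.3 and 221 (1.11 ± 0.21, and 0.77 with normexp and quantile normalisation together).

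Nanos3 and Tex14, both germ cell genes, were well above background on both arrays, Nanos3 at 49.9 and 45.0 (-0.36 ± 0.23) and Tex14 at 39.9 and 32.7 (-0.50 ± 0.26).

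The list of germ cell markers gave no measured gene. All of its genes are also in the germ cell and meiosis list above, so it repeats a part of that list. Dazl, Ddx4, Sycp3, Dppa3 and Mael, 5 of 5 markers, missed the software's call of well above background on both arrays, with summed signals of 17.3 (EGFP) and 21.2 (Pax6). Epithelial markers, by contrast, were measured. All 6 (Cdh1, Epcam, Krt8, Krt18, Krt19 and Cldn3) met the rule as lower with Pax6, beside 2.43% of all genes. Their log2 differences lay from -3.40 to -1.41, with summed signals of 60046 and 25346. Most of these sums came from Krt18 (42773 and 18657) and Krt8 (15665 and 6266). Fibroblast or mesenchyme markers also differed, in both directions. Dcn (2.95), Col3a1 (1.93) and Pdgfra (1.92) were higher with Pax6, and Col1a1 (-2.33), Thy1 (-2.14, a bound) and Col1a2 (-1.18) were lower. The median of this list was 0.37. Its summed signals were 94692 and 62329, of which Col1a2 alone gave 90871 and 46506, so the sums mostly read that gene. The sums given here are of signals not scaled between the arrays. The part of either marker list in the values of the 9 genes was not tested.

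**Figure D5:**
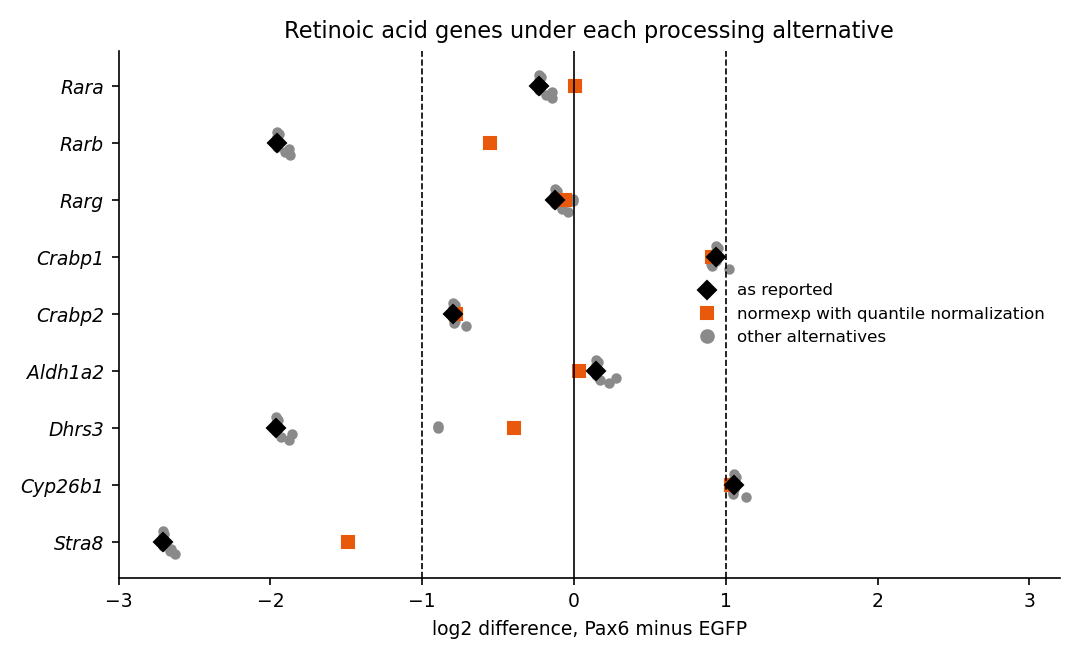
Log2 difference of each of the 9 genes as reported (black diamond), with normexp and quantile normalisation together (orange square) and under the other alternatives (grey). Dashed lines mark 2-fold. Normexp and quantile normalisation together gave -0.56 for Rarb, -0.39 for Dhrs3 and -1.49 for Stra8, while Cyp26b1, Crabp1 and Crabp2 stayed close to their reported values.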

How the data were processed

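Total RNA of 1 sample per group was labelled with Cy3 and hybridised to a 1-colour Agilent array, per the labels' protocols. The deposited intensity values are processed signals of Agilent Feature Extraction 10.7.3.1, background-subtracted and detrended within each array and not normalised between arrays, per the file headers. The deposited series table held the same values. The file headers give both arrays the same slide and scan. With 1 array per group no test was made.

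Outlier spots (51 and 52) were left out, which kept 43283 spots of 41168 probes. Log2 signals had each array's 75th percentile (854 and 991) subtracted, spots of a probe were averaged, and a gene took its brightest probe above background. A probe below background on 1 array enters as its brighter value against a floor. The floor is the array's lowest signal called above background, which gives a lower bound. Where the dim signal is higher than that, the dim signal is used and the difference is as measured. Accessions gave current symbols for 22951 probes, and the others kept the array's names. Steps used Python 3.11.15 and, for normexp (offset 50, followed by quantile normalisation), quantile and cyclic loess normalisation, limma 3.58.1. Only the 75th percentile scaling and the probe and gene steps were tested on simulated data, with changes set in genes measured on both arrays. The other normalisations and the motif search were not tested in that way.

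Named were all probes of the 9 genes, list genes at least 2-fold different, and members of lists of at most 10 genes. Aldh1a1, Nanos3, Tex14, the cell type markers named and the half-site motifs were added after values were seen. The genes and lists were chosen with earlier results of these data known. Alternatives were other scalings, background correction, probe rules, filters and rules of size. The scaling to 8 spike-ins, and the use of dim signals without a floor, were chosen after seeing the data. No genome of the array's build was used here, so exons are not stated. Some list genes are not reported here.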

Additional observations from a re-analysis of the deposited data

How the results depend on the processing

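Stra8 and Cyp26b1 kept their direction and at least 2-fold in all 11 alternatives that give a value. Rarb kept its direction in all 11 and at least 2-fold in 10. Only the 5 alternatives that change the scaling or the background could move these values. The others repeat them by construction, as each gene has 1 usable probe measured on both arrays, so the counts overstate the checks. With normexp and quantile normalisation together Rarb was -0.56 and Dhrs3 -0.39, the number of the 9 genes that were lower was 1, the median of the genes first named Stra was -0.034 (0.21 as reported) and that of the germ cell list -0.20 (-0.50 as reported). The mean and the median of a gene's probes gave -0.89 for Dhrs3 and -0.59 for the degradation list (-0.88 as reported). Scaling by the median gave 1.02 for Crabp1 and 2 higher genes in place of 1. A rule of at least 3-fold left 0 higher and 3 lower of the 9 genes. Asking for both arrays gave a median of -0.10 for the Stra list, and no filter gave 0.51 for it and -0.24 for the degradation list, which rests on 1 measured gene. Over all genes, 452 were higher and 467 lower, against 176 and 109 with normexp and quantile, 1050 and 1137 with no filter and 165 and 103 at 3-fold, and 713 were higher with dim values as measured. Quantile normalisation alone gave -1.90 for Rarb, -1.93 for Dhrs3 and 3 lower genes. The causes of these changes were not tested. Signal over background limits Rara, Aldh1a2, Rarb and Dhrs3. No paired analysis was possible because there is 1 array per group, and none could be left out.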

Other observations

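Of the 31 genes whose RefSeq promoter window holds the half-site repeat with a spacer of 5 bases, 6 were measured above background on 1 or both arrays. Rarb and Hbb-y, an embryonic globin gene, were the 2 at least 2-fold lower on the Pax6 array (log2 differences of -1.96 and -1.58), and 0 were at least 2-fold higher. Over all genes 2.43% were lower and 2.35% higher by that rule, and nothing is read from the comparison, since Rarb itself prompted the set. Globin genes resemble each other, so the Hbb-y value is uncertain. The other differences were -0.23 for Tnfsf13b and 0.09 for Blvrb. Ppbp was 1.47-fold and Prokr2 1.73-fold higher, each well above background with Pax6 alone and set against the floor described above. The median of the 6 was -0.07, and that of all genes was -0.01. This set was looked at after the values of Rarb were seen.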
